A study of Mus musculus with 192 samples.

Results

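Midbrain RNA of nontransgenic (NON) mice at T3, about 400 days of age, was compared with that of NON mice at T1, about 100 days of age. The pools were chosen by their labelled time point, region and genotype, and 11 of the 192 pools of the series belong to this comparison: 5 pools of T1 made from 9 mice and 6 pools of T3 made from 10 mice. Each pool holds RNA of 1 or 2 mice, and all mice are male and on the FVB/n background of the L44 line. The line carries tripro-hA, a modified human amylin that does not form amyloid, under the rat insulin 2 promoter. NON mice lack it and were bred from hemizygous parents. At T1 the mice were 99 to 101 days old, with 2 pools collected in the morning (AM) and 3 in the afternoon (PM). At T3 they were 400 to 406 days old, with 3 AM and 3 PM pools, and 3 of the 6 pools (1/2, 7 and 8/9) are labelled as previously diabetic. A pool bears the numbers of the samples combined in it, as in 1/2.

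The nCounter platform counts each mRNA with a barcoded probe, and the deposited raw counts cover 43 target and 3 reference genes. Every pool also has counts of 6 positive and 8 negative controls. The target genes summed to 227941 to 275319 counts per T1 pool (median 268495) and 232959 to 262879 per T3 pool (median 244530). The background of a pool, set at 2 SD above the mean of its negative controls, lay between 20.3 and 30.6 counts. Normalised counts are raw counts divided by the geometric mean of the reference genes of the pool, put on the average level of the 49 midbrain pools. They compare pools for 1 gene and give no order between genes, since probes differ in efficiency.

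The panel follows 3 hormones that lower food intake. Amylin acts on receptors made of the calcitonin receptor and a receptor activity modifying protein (Ramp). Insulin signals through its receptor, the Irs proteins, PI3 kinase and Akt, and leptin through its receptor, Jak2 and Stat3. Ptp1b removes phosphate from the leptin and insulin receptor complexes, and Socs3 and Pias3 restrain Jak-Stat signalling. In the hypothalamus these signals reach neurons that make Pomc and Cart, which lower appetite, and Npy and Agrp, which raise it. B2m, one of the reference genes, encodes the light chain of MHC class I molecules and is known for high expression in microglia and other immune cells.

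The tissue called midbrain includes the forebrain and hypothalamus, as the study describes it. Hypothalamic peptide genes, and Hdc, were above background in all 11 pools. Raw counts were 20533 to 31058 for Mch (melanin concentrating hormone), 510 to 1078 for Hcrt (orexin), 245 to 406 for Pomc, 260 to 368 for Hdc (the enzyme that makes histamine) and 65 to 179 for Agrp. Pomc is also made in the pituitary, for which the panel has no defining marker. In bulk tissue, fewer cells of a type and less RNA per cell cannot be told apart.

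B2m rose between T1 and T3 relative to the other 2 reference genes, and this set how every target gene was read. The ratio of B2m to the geometric mean of the other 2 was 9.21 in T1 pool 1/3, 9.54 in 2/7, 8.61 in 4/5, 8.63 in 6 and 9.15 in 8/9. At T3 the lowest ratio was 10.8, the median 11.6 and the highest 16.1, in pool 10. Every T3 pool was above every T1 pool, with a mean of 12.2 ± 1.92 (SD, n = 6) against 9.03 ± 0.40 (SD, n = 5). The mean difference within collection times was 0.41 on the log2 scale, a 1.33-fold rise, with 0.46 in AM and 0.37 in PM pools. An exact permutation of time points within AM and PM pools gave a two-sided p = 0.005, the smallest that its 200 arrangements allow, and an adjusted p = 0.0325 over 13 level checks. Leaving out pool 10 gave 0.33, and each other pool left out gave between 0.40 and 0.46.

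**Figure D1:**
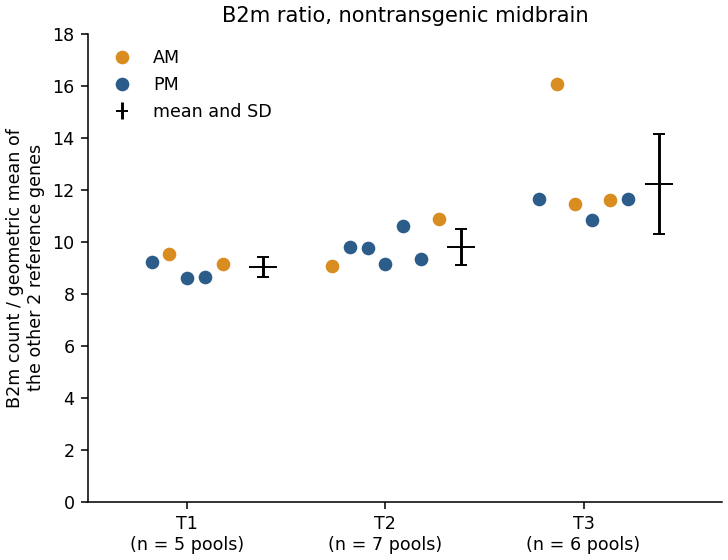
Ratio of the B2m count to the geometric mean of the other 2 reference genes in each nontransgenic midbrain pool at T1, T2 and T3, with points by collection time and bars for the mean and SD. T3 pools lie between 10.8 and 16.1, above all T1 pools (8.61 to 9.54), and T2 pools lie between 9.05 and 10.9.

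T2 is the study's stage of diabetes onset, at which NON mice served as controls. Its pools held mice of about 90 to 286 days, so the youngest were no older than T1 mice. At T2 the ratio was 9.05 to 10.9 (median 9.74, n = 7), a range that overlaps T1 at its lower end and T3 at its upper end. Over these 7 pools the log2 ratio had a Pearson r of 0.59 with the mean labelled age (exact permutation p = 0.169) and a Spearman rho of 0.54 (exact permutation p = 0.236). Both adjusted p were 0.236 for this pair of relations, which were chosen after the values were seen. Without the 2 pools farthest from the median age, r was 0.11, over 5 pools with a narrower range of ages.

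Against the positive control probes, which are added in equal amounts to every hybridisation, B2m had a log2 difference of 0.24 between T3 and T1 (exact permutation p = 0.075) and the other 2 reference genes had -0.17 (exact permutation p = 0.16). The summed target genes had -0.22 against the positive controls (exact permutation p = 0.1) and -0.04 against the other 2 reference genes (exact permutation p = 0.335). These counts therefore show that B2m and the other 2 reference genes moved apart, and do not settle how much of the gap lies on each side. Scaling to the positive controls does not adjust for the amount of RNA, of which the study added a fixed volume. A difference in that amount was not tested. The positive and negative control probes themselves had log2 differences of 0.12 (exact permutation p = 0.19) and -0.03 (exact permutation p = 0.82). After adjustment over the 13 checks these p were between 0.1625 and 0.82. The panel has no probe for microglia, other immune cells or blood vessels, and their part in the B2m ratio was not tested. The labels name no hybridisation run, so run and time point cannot be told apart.

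The promoter of B2m is shown because the choice of B2m as a reference changed the calls of the comparison. B2m lies on the plus strand of mouse chromosome 2, and the 250 bases before its start (GRCm38.p6, chr2:122147437-122147686, from RefSeq) read:
B2m: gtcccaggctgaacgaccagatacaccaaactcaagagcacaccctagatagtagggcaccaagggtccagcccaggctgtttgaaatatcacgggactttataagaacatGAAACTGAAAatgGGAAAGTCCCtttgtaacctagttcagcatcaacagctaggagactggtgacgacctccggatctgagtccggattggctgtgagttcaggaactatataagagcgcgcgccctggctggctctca
Capitals mark a match to GAAA, any 2 bases and GAAA, the core of an interferon-stimulated response element, 139 to 130 bases before the start. They also mark a match on the opposite strand to GGG, any 3 bases and TTCC, a kappa B type motif, 126 to 117 bases before it. The letters were searched on both strands, and the matches do not overlap. In windows of the same length, 2.98% of 32851 RefSeq mouse promoters hold the first and 4.65% the second. A match describes the sequence only, and no binding was measured here.

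Relative to all 3 reference genes, 17 of the 43 target genes were lower at T3 than at T1 (39.5%) and none was higher (0%), by edgeR's quasi-likelihood test with collection time as a covariate and Benjamini-Hochberg adjustment over the 43 genes at 0.05. The log2 fold-changes of the 17 genes lay between -0.12 and -0.35, none beyond 0.58 in size, and the median over all 43 genes was -0.19. Relative to the other 2 reference genes, without B2m, no gene was lower and 1 gene, Ramp1, was higher (2.33%), and the median was -0.05. At an unadjusted p under 0.05 there were 24 genes with 3 reference genes and 5 without B2m, by the same test. DESeq2 called 20 lower genes with 3 reference genes and 0 lower and 1 higher without B2m. The T1 and T3 pools of 12 genes (27.9%) did not overlap with 3 reference genes, against 1 gene (2.33%) without B2m. The fall of the 17 genes passed relative to the 3 reference genes, and did not pass relative to the other 2 or to the positive control probes. The 2 cases differed in size. The panel median shrank to -0.05 relative to the other 2, but was -0.21 relative to the positive control probes. With these probes, which do not adjust for the amount of RNA, the lowest adjusted p by edgeR was 0.0532. The counts of list members given below are to be read against the 39.5% of the panel that was lower.

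With edgeR's TMM scaling, which takes the target genes as its own reference, the panel median was -0.0047, no gene was lower (0%) and Ramp1 was again the 1 gene that was higher (2.33%). At an unadjusted p under 0.05 there were 8. Scaling to the positive control probes gave a median of -0.21, with no gene past the threshold (0%) and 11 at an unadjusted p under 0.05. Since leaving B2m out moved the panel median from -0.19 to -0.05, some values are given below relative to that median.

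**Figure D2:**
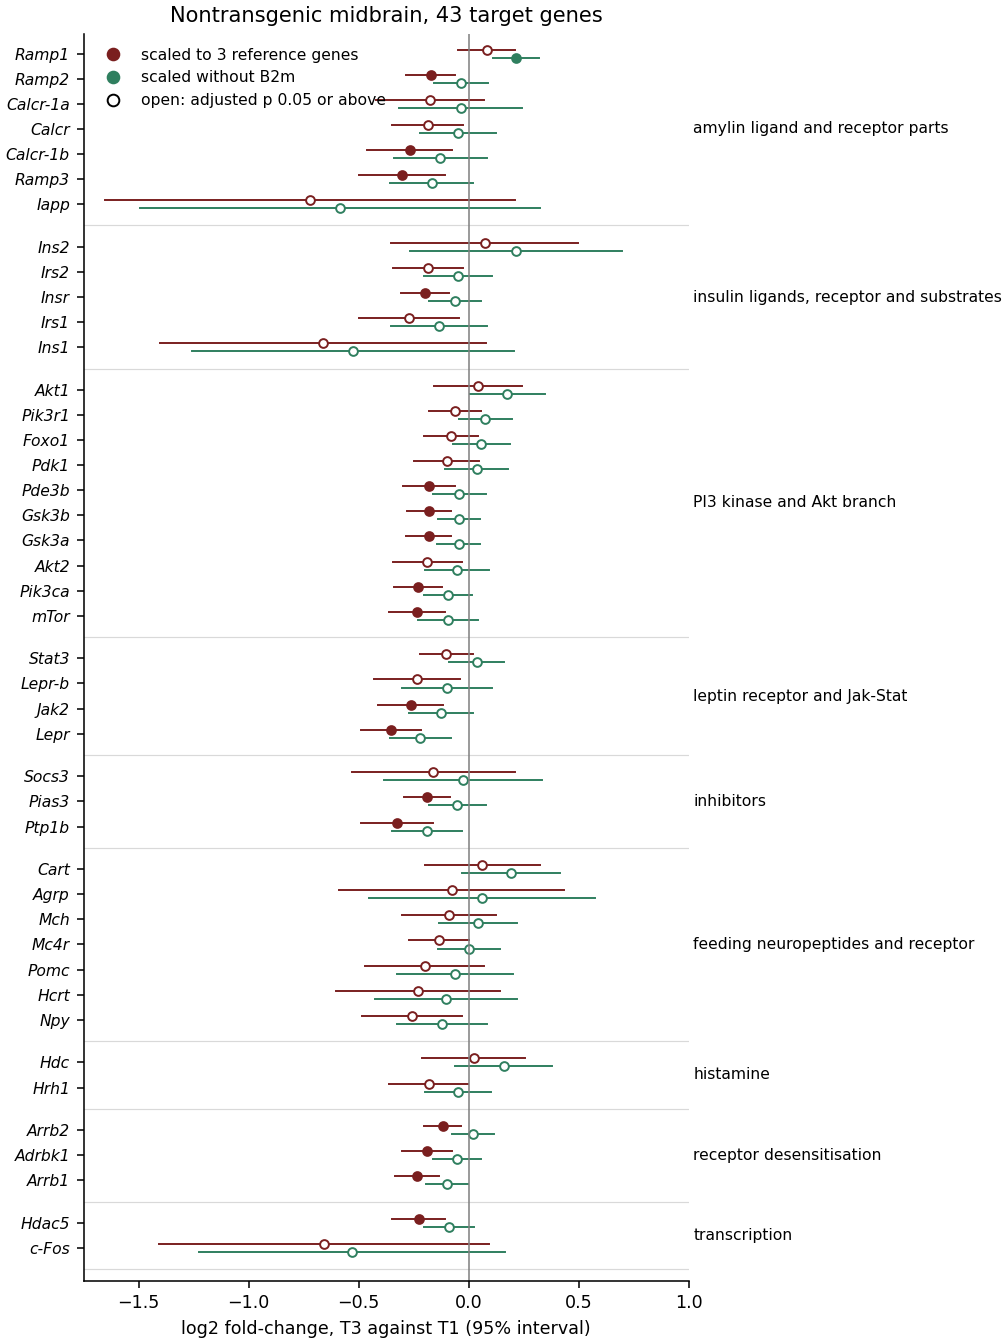
Log2 fold-change of each of the 43 target genes, T3 against T1 in nontransgenic midbrain, with 95% intervals, grouped by role. Filled points passed an adjusted p of 0.05, which 17 genes did with 3 reference genes (all lower) and Ramp1 did without B2m (higher).

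Lepr, the leptin receptor, had the lowest adjusted p of the panel with 3 reference genes. It had normalised counts of 1963, 2024, 1871, 1642 and 1772 in T1 pools 1/3, 2/7, 4/5, 6 and 8/9, and 1339 to 1629 (median 1436) in the 6 T3 pools. All T3 pools were below all T1 pools. The log2 fold-change was -0.35 (SE 0.063, adjusted p = 0.00548), and it was -0.17 relative to the panel median. Without B2m it was -0.22 (SE 0.064, adjusted p = 0.107), which did not pass, and it passed there only without T1 pool 6 (-0.25, adjusted p = 0.0493). Lepr-b, a probe for the long signalling form of the same gene, had 206 to 250 at T1 and 180 to 234 at T3. Its fold-change was -0.24 (SE 0.090, adjusted p = 0.0504). By edgeR it was called without T1 pool 6 (adjusted p = 0.0223) or T3 pool 5/6 (adjusted p = 0.0430) or 8/9 (adjusted p = 0.0198). With all pools, DESeq2 called it (adjusted p = 0.0426), as did edgeR without the collection time covariate (adjusted p = 0.0413).

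Jak2, the kinase bound to the leptin receptor, had 14721, 17044, 14387, 14098 and 14979 at T1 in the same pool order, and 11531 to 14366 (median 12225) at T3. The groups overlapped through T3 pool 5/6, and the fold-change was -0.26 (SE 0.067, adjusted p = 0.00849). Stat3, the transcription factor that Jak2 activates, had 4288 to 4895 at T1 and 3983 to 4664 at T3, with -0.10 (adjusted p = 0.148), and 0.04 without B2m. Of the 4 leptin receptor and Jak-Stat genes, Lepr and Jak2 fell and the other 2 did not pass, and the list's median of -0.25 compares with -0.19 over the panel. Without B2m none of the 4 passed and the list's median was -0.11.

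Among the 3 inhibitors, Ptp1b and Pias3 fell. Ptp1b, a tyrosine phosphatase, had 5290, 6456, 5267, 5165 and 6532 at T1 and 4262 to 5107 (median 4592) at T3, with no overlap. Both T1 AM pools were higher than the 3 T1 PM pools. The fold-change was -0.33 (SE 0.074, adjusted p = 0.00849), or -0.14 relative to the panel median. Without B2m it was -0.19 (adjusted p = 0.341). Pias3, which blocks Stat3 on DNA, had 1462, 1539, 1408, 1424 and 1533 at T1 and 1210 to 1362 (median 1291) at T3, again with no overlap. Its fold-change was -0.19 (SE 0.048, adjusted p = 0.00849), but only -0.003 relative to the panel median. Without B2m it was -0.05 (adjusted p = 0.642), and the groups overlapped. Socs3, the feedback inhibitor that leptin induces, had 54.3, 64.1, 55.8, 45.7 and 71.3 at T1 and 40.7 to 62.2 (median 54.6) at T3. Its fold-change of -0.16 (95% interval -0.53 to 0.21, adjusted p = 0.422) did not pass and turned to 0.02 with TMM scaling and 0.06 in PM pools alone.

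**Figure D3:**
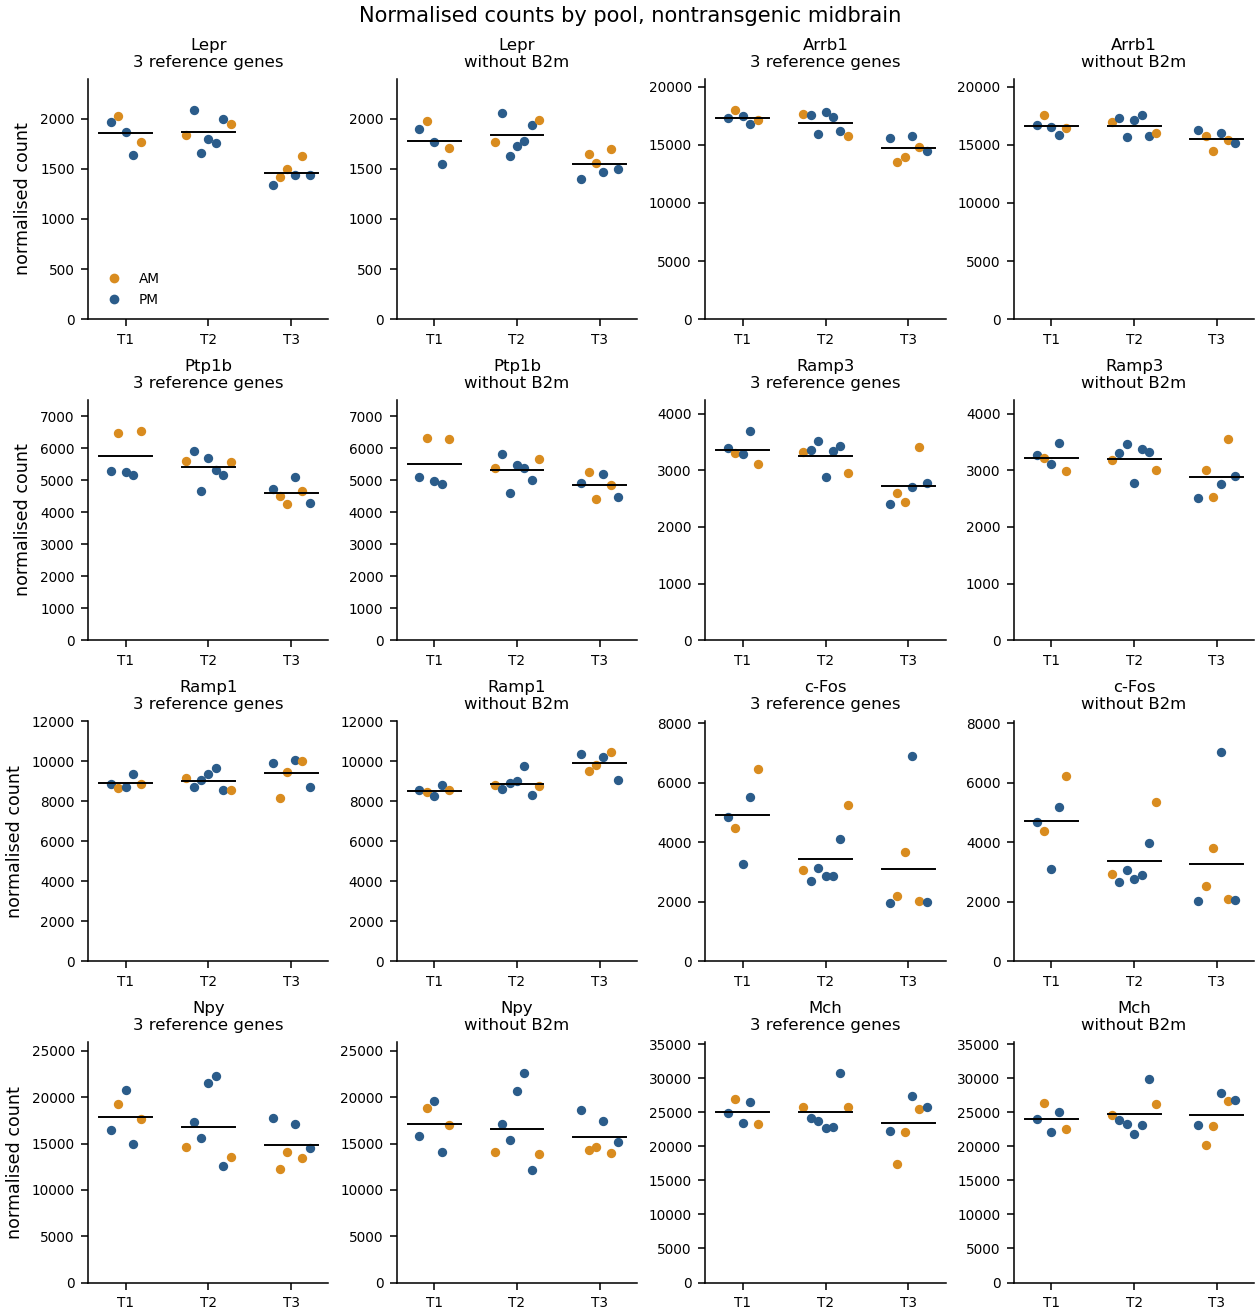
Normalised counts in each nontransgenic midbrain pool at T1, T2 and T3 for 8 genes, each scaled to 3 reference genes and without B2m, with lines at the means and points by collection time. Lepr has no overlap between T1 and T3 with 3 reference genes, Ramp1 has none without B2m, and in c-Fos T3 pool 5/6 lies at 6908, above the other T3 pools.

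Of the 7 amylin ligand and receptor genes, Ramp2, Ramp3 and Calcr-1b fell with 3 reference genes, and the list's median of -0.19 equalled that of the panel to 2 decimals. Ramp3, which forms an amylin receptor with the calcitonin receptor, had 3394, 3297, 3294, 3691 and 3109 at T1. At T3 it had 2402 to 3407 (median 2649), and only pool 7, at 3407, reached the T1 range. The fold-change was -0.30 (SE 0.089, adjusted p = 0.0168), and -0.17 (adjusted p = 0.417) without B2m. Ramp2, a partner of the calcitonin and adrenomedullin receptors, had 2138, 2074, 2048, 1964 and 2096 at T1 and 1716 to 2029 (median 1794) at T3, with an overlap through T3 pool 1/2.

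The Ramp2 fold-change was -0.17 (SE 0.050, adjusted p = 0.0168), but 0.01 with TMM scaling, and its call was lost without T1 pool 2/7 (adjusted p = 0.0546) or 8/9 (adjusted p = 0.0530). Calcr-1b, an isoform of the calcitonin receptor, had -0.27 (adjusted p = 0.0276), and its call was lost without T1 pool 2/7 (adjusted p = 0.0572), 6 (0.0526) or 8/9 (0.0956) or T3 pool 3/4 (0.0610) or 5/6 (0.0558). Calcr had -0.19 (adjusted p = 0.0526), and was called without T3 pool 8/9 (-0.25, adjusted p = 0.0198). Calcr and Calcr-1a are listed with the same transcript accession, so their counts may not be independent.

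Ramp1, which forms the other common amylin receptor and the receptor of calcitonin gene-related peptide, moved the other way from the panel. Without B2m in the reference, it had normalised counts of 8556, 8483, 8247, 8835 and 8560 at T1, and 9091, 9522, 9822, 10245, 10371 and 10464 in the T3 pools 8/9, 10, 3/4, 5/6, 1/2 and 7. All T3 pools were above all T1 pools, and it was the 1 gene of 43 without overlap. Its fold-change was 0.22 (SE 0.048, 95% interval 0.11 to 0.32, adjusted p = 0.0290), and 0.26 (adjusted p = 0.0088) with TMM scaling. With 3 reference genes it was 0.08 (SE 0.059, adjusted p = 0.243), which was 0.27 above the panel median.

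The Ramp1 call without B2m held in 4 of the 11 settings that left out 1 pool, with fold-changes between 0.20 and 0.25 in all of them. It was lost without T1 pool 1/3 (adjusted p = 0.0965), 2/7 (0.0994), 4/5 (0.113) or 8/9 (0.0538) and without T3 pool 1/2 (0.0829), 5/6 (0.0540) or 7 (0.0763). Ramp1 was singled out after its values were seen.

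Of the 5 insulin ligand, receptor and substrate genes, Insr fell. Insr, the insulin receptor, had 2962, 3106, 2967, 2850 and 3169 at T1 and 2398 to 2758 (median 2671) at T3, with no overlap, and a fold-change of -0.20 (SE 0.050, adjusted p = 0.00849). Without B2m it was -0.06 (adjusted p = 0.59). The receptor substrates Irs1, with -0.27 (adjusted p = 0.0504), and Irs2, with -0.19 (adjusted p = 0.0526), stood at the threshold. DESeq2 called Irs1 with all pools (adjusted p = 0.0426). Irs1 was called without T1 pool 4/5 (adjusted p = 0.0404) or 6 (0.0459) or T3 pool 1/2 (0.0484), 5/6 (0.0212) or 7 (0.0490), and Irs2 without T1 pool 4/5 (0.0384) or T3 pool 5/6 (0.0117) or 7 (0.0435). Iapp (amylin) was at or under background in 5 of the 11 pools, Ins1 in 7 and Ins2 in 4, so that the values of these 3 ligands lie near the limit of detection. Their fold-changes were -0.72 (95% interval -1.65 to 0.21) for Iapp, -0.66 (-1.40 to 0.08) for Ins1 and 0.07 (-0.35 to 0.50) for Ins2. None of the 3 passed. With 1 pool left out, Iapp ran from -0.93 to -0.15 and Ins1 from -0.85 to -0.39, and each was called only without T1 pool 6 (adjusted p = 0.0459 and 0.0250). The raw count of Iapp was 114 in T1 pool 4/5 and 14 to 44 in the other T1 pools.

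The PI3 kinase and Akt branch had 5 of 10 genes lower, Pik3ca, mTor, Gsk3a, Gsk3b and Pde3b, near the 39.5% of the panel, and a median of -0.18 beside -0.19 for the panel. Pik3ca, the catalytic subunit of PI3 kinase, had 16814, 19126, 16637, 16325 and 17659 at T1 and 14118 to 15797 (median 14719) at T3, with no overlap, and a fold-change of -0.23 (SE 0.050, adjusted p = 0.00849). Pik3r1, its regulatory subunit, had -0.06 (adjusted p = 0.321). The growth kinase mTor had 5301, 5980, 5221, 5741 and 6104 at T1 and 4364 to 5118 (median 4852) at T3. It did not overlap either, with -0.23 (SE 0.058, adjusted p = 0.00849).

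Both glycogen synthase kinases, which Akt inhibits, fell. Gsk3a had 23979, 25685, 23990, 24248 and 25065 at T1 and 20456 to 23533 (median 21124) at T3, with -0.18 (SE 0.046, adjusted p = 0.00849). Gsk3b had 19583, 20146, 19495, 19219 and 20010 at T1 and 16063 to 18437 (median 17482) at T3, with -0.18 (SE 0.046, adjusted p = 0.00849). Neither gene overlapped between T1 and T3, and with TMM scaling the sign of Gsk3b turned, at 0.0011. Pde3b, which degrades cyclic AMP downstream of Akt, had -0.18 (adjusted p = 0.0191). Its sign turned with TMM scaling, at 0.0037, and its call was lost without T1 pool 2/7 (adjusted p = 0.0719) or 8/9 (adjusted p = 0.0644). Akt1 had 0.04 (adjusted p = 0.708) and Akt2 had -0.19 (adjusted p = 0.0504), called without T1 pool 6 (adjusted p = 0.0300) or T3 pool 5/6 (adjusted p = 0.0117). DESeq2 called Akt2 with all pools (adjusted p = 0.0492). No gene of the branch passed without B2m, where its median was -0.04. The probe named Pdk1, counted in the branch by the study's name for it, has the accession of pyruvate dehydrogenase kinase 1 in RefSeq. It had -0.10 (adjusted p = 0.212), called lower without T3 pool 1/2 (adjusted p = 0.0333).

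The 3 genes of receptor desensitisation, Adrbk1, Arrb1 and Arrb2, fell, beside 39.5% of the panel, and their median of -0.19 was that of the panel to 2 decimals. Arrb1 (beta-arrestin 1), an adaptor that uncouples receptors from G proteins, had 17262, 17988, 17465, 16772 and 17099 at T1 and 13531 to 15724 (median 14631) at T3. Its lowest T1 pool was above its highest T3 pool, and the fold-change was -0.23 (SE 0.045, adjusted p = 0.00586). Adrbk1, the kinase that recruits beta-arrestins to receptors, had 7693, 7895, 7323, 7390 and 7732 at T1 and 6066 to 7222 (median 6607) at T3, with -0.19 (SE 0.052, adjusted p = 0.0131). It did not overlap either.

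Arrb2 had -0.12 (SE 0.038, adjusted p = 0.0229), the smallest fall called, and its call was lost without T1 pool 2/7 (adjusted p = 0.0743) or T3 pool 8/9 (adjusted p = 0.0541). Arrb2 turned to 0.02 without B2m and 0.06 with TMM scaling. Without B2m none of the 3 passed, with -0.10 for Arrb1 (adjusted p = 0.385) and -0.05 for Adrbk1 (adjusted p = 0.598).

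The transcription list holds Hdac5 and c-Fos. Hdac5, a histone deacetylase, had 8680, 9545, 8420, 8679 and 9915 at T1 and 7293 to 8268 (median 7733) at T3, with no overlap, and fell by 0.23 on the log2 scale (SE 0.055, adjusted p = 0.00849). Without B2m its fold-change was -0.09 (adjusted p = 0.449).

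The neuronal activity gene c-Fos had wide spread and 1 deciding pool. Its normalised counts were 4860, 4486, 3278, 5515 and 6463 at T1. At T3 they were 1951 in pool 1/2, 3688 in 3/4, 6908 in 5/6, 2024 in 7, 1993 in 8/9 and 2189 in 10. Pools 1/2, 7, 8/9 and 10 were below all T1 pools, 3/4 was within the T1 range and 5/6 was above it. The fold-change was -0.66 (SE 0.34, 95% interval -1.41 to 0.09, adjusted p = 0.126) with 3 reference genes and -0.53 (adjusted p = 0.473) without B2m. Without pool 5/6 it was -1.13 (adjusted p = 0.00206) and, without B2m as well, -0.99 (adjusted p = 0.00236). The pools below the T1 range include all 3 labelled as previously diabetic. These alone gave -1.29 (adjusted p = 0.00637) with 3 reference genes, and the 3 T3 pools not so labelled gave -0.20 (adjusted p = 0.604). AM pools alone gave -1.06 (adjusted p = 0.0332) and PM pools alone -0.33 (adjusted p = 0.712). The PM minus AM difference was 0.72 (95% interval -0.87 to 2.32, adjusted p = 0.479), and the difference by diabetes was not tested. At T2, c-Fos was 2707 to 5266.

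None of the 7 feeding neuropeptide and receptor genes passed the test by edgeR, with a median of -0.14 with 3 reference genes and 0.00 without B2m. Npy had 16443, 19300, 20816, 14970 and 17625 at T1 and 12269 to 17797 (median 14294) at T3. Its groups overlapped, and the fold-change was -0.26 (SE 0.104, adjusted p = 0.055). Npy was called without T1 pool 1/3 (adjusted p = 0.0457) or 6 (adjusted p = 0.0151) or T3 pool 1/2 (adjusted p = 0.0365) or 5/6 (adjusted p = 0.0366), and without B2m it was -0.12 (adjusted p = 0.499).

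Pomc had 356, 238, 311, 296 and 366 at T1 and 230 to 336 (median 267) at T3, with -0.20 (95% interval -0.47 to 0.07, adjusted p = 0.191). This value ran from -0.28 to -0.07 with 1 pool left out, and was -0.06 without B2m and -0.02 with TMM. Cart had 4908, 5396, 4867, 5172 and 4530 at T1 and 4053 to 6386 (median 5529) at T3, a wider range on both sides, with 0.06 (95% interval -0.20 to 0.32, adjusted p = 0.674), 0.19 without B2m and 0.24 with TMM. The T3 range of Cart thus enclosed all T1 pools. Agrp had 152, 77.6, 161, 85.1 and 85.0 at T1 and 66.0 to 130 (median 110) at T3, with -0.08 (95% interval -0.59 to 0.43, adjusted p = 0.761), and 0.06 without B2m.

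Hcrt had 960, 855, 773, 979 and 853 at T1 and 433 to 974 (median 748) at T3, with -0.23 (95% interval -0.60 to 0.14, adjusted p = 0.243). This ran from -0.34 to -0.13 with 1 pool left out, and was -0.10 without B2m and -0.06 with TMM. Mch, which raises appetite, had 24829, 27000, 23416, 26459 and 23341 at T1 and 17421 to 27354 (median 23853) at T3. Its fold-change was -0.09 (95% interval -0.30 to 0.12, adjusted p = 0.427) and 0.04 without B2m, and it ran from -0.14 to -0.03 with 1 pool left out. Mc4r, the receptor of the Pomc product, had -0.14 (adjusted p = 0.0921), and was called without T3 pool 5/6 (adjusted p = 0.0293). Neither histamine gene passed, with 0.02 for Hdc and -0.18 for Hrh1, the histamine H1 receptor, which was called without T3 pool 7 (adjusted p = 0.0345).

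The morning and afternoon pools were compared because collection time was labelled. With 3 reference genes, AM pools alone (2 against 3) gave 22 lower genes and PM pools alone (3 against 3) gave 2, Lepr and Ramp3, with panel medians of -0.29 and -0.11. A direct test of PM minus AM had no gene past the threshold (0%) in edgeR, with 10 genes at an unadjusted p under 0.05. DESeq2 called 8 genes, all with a positive PM minus AM difference, with Ptp1b (0.38, adjusted p = 0.00926) and Stat3 (0.27, adjusted p = 0.00926) foremost. In edgeR these were 0.38 and 0.27 with an adjusted p = 0.0846 each. Without B2m, AM pools alone gave 3 lower genes, Npy, Ptp1b and c-Fos, and PM pools alone gave 0.

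By previous diabetes, the 3 T3 pools not labelled so gave 16 lower genes against T1 and the 3 labelled so gave 16, with panel medians of -0.23 and -0.16. The 2 sets of T3 pools share the T1 pools and hold 3 pools each, and the difference between them was not tested. The B2m ratio was higher than at T1 in both sets, by 0.42 and 0.36 on the log2 scale, with no test of their own, since all T3 pools lie above all T1 pools.

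The 7 T2 pools, with mean ages of 114 to 254 days, were compared with both groups. T2 against T1 had no gene past the threshold (0%) in edgeR, 2 at an unadjusted p under 0.05 and 0 in DESeq2, with a panel median of -0.01. Without B2m, Akt1 alone was called, higher by 0.27 (adjusted p = 0.0344). T3 against T2 had 22 lower genes (51.2%) and none higher, with a median of -0.18. Both comparisons share pools with that of T3 against T1. With 3 reference genes Lepr was 1658 to 2087 at T2, with no overlap with T3, and T3 against T2 gave -0.37 (adjusted p = 0.000537). Without B2m, 1 gene was lower at T3 than at T2 (2.33%), which was Lepr with -0.28 (adjusted p = 0.0191), and 1 was higher (2.33%), which was Ramp1 with 0.16 (adjusted p = 0.0333). Within T2, no gene had a slope over the mean labelled age past the threshold in edgeR, with 13 at an unadjusted p under 0.05 and 5 lower genes in DESeq2.

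Homozygous (HOM) L44 mice had 4 midbrain pools at T1 (2 AM, 2 PM) and 6 at T3 (5 AM, 1 PM). All HOM T3 pools but pool 6 are labelled as previously diabetic, beside 3 of the 6 NON T3 pools. In HOM midbrain, T3 against T1 gave 7 lower genes (16.3%) and none higher with 3 reference genes. They were Jak2, Ptp1b, Pik3r1, Pik3ca, Lepr, Hdac5 and Ramp3, and all but Pik3r1 were among the 17 of NON mice (85.7% of the 7 and 35.3% of the 17). Without B2m none passed, with 11 at an unadjusted p under 0.05. The B2m ratio rose there by 0.43 on the log2 scale (exact permutation p = 0.0159, adjusted p = 0.0433), beside 0.41 in NON midbrain. The difference between NON and HOM in their T3 minus T1 change had no gene past the threshold (0%) in edgeR, 5 at an unadjusted p under 0.05 and 0 in DESeq2. Its value for Lepr was -0.05 (95% interval -0.25 to 0.14).

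The cortices of the same NON mice differed from the midbrain, tested over pools with the same label in both regions (5 of T1, with 4 of T3 for the left and 5 for the right cortex). The T3 minus T1 change in midbrain, less that in the left cortex, was positive in 11 genes (25.6%) and negative in 5 (11.6%). For the right cortex it was positive in 12 (27.9%) and negative in 6 (14%). In both cortices, 15 genes differed in the same direction, 11 positive and 4 negative. Lepr-b had the largest differences, 1.83 (SE 0.210) for the left and 2.24 (SE 0.197) for the right cortex. With all T3 pools of each region, which is a larger set than the matched pools, it was at -0.24 in midbrain and at -2.05 and -2.28 in the cortices. Jak2 differed by 1.03 (SE 0.074 and 0.072) from both, and Lepr by 1.03 (SE 0.223) and 1.28 (SE 0.128). These 3 targets, of which Lepr and Lepr-b are probes of the same gene, were thus lowered far less in midbrain than in cortex.

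Ramp1, Ramp2, Hdac5 and Adrbk1 went the other way, with a T3 minus T1 change in midbrain below that of both cortices. Ramp1 rose in the cortices, by 0.56 (left) and 0.63 (right), and the midbrain minus cortex differences were -0.45 (SE 0.084) and -0.55 (SE 0.084). Without B2m they were -0.27 and -0.38, and those of Adrbk1 went from -0.34 and -0.33 to -0.16 and -0.15, of which the last did not pass (adjusted p = 0.162). Relative to the positive control probes all 43 differences were positive for each cortex, with medians of 1.35 and 1.92, so the negative direction of these 4 genes holds relative to the reference genes and TMM only. The B2m ratio also differed by region. It fell in the left cortex by 0.30 on the log2 scale (exact permutation p = 0.005, adjusted p = 0.0325) and had a difference of -0.17 in the right (exact permutation p = 0.195). The midbrain ratio relative to that of the left and right cortex of the same pools rose by 0.54 (exact permutation p = 0.0167) and 0.53 (exact permutation p = 0.01), with an adjusted p = 0.0433 for each. Total target counts at T3 were much lower in the cortices (medians 135752 and 138927, against 362898 and 414121 at T1) but not in midbrain, and the part of this in the regional differences was not tested.

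**Figure D4:**
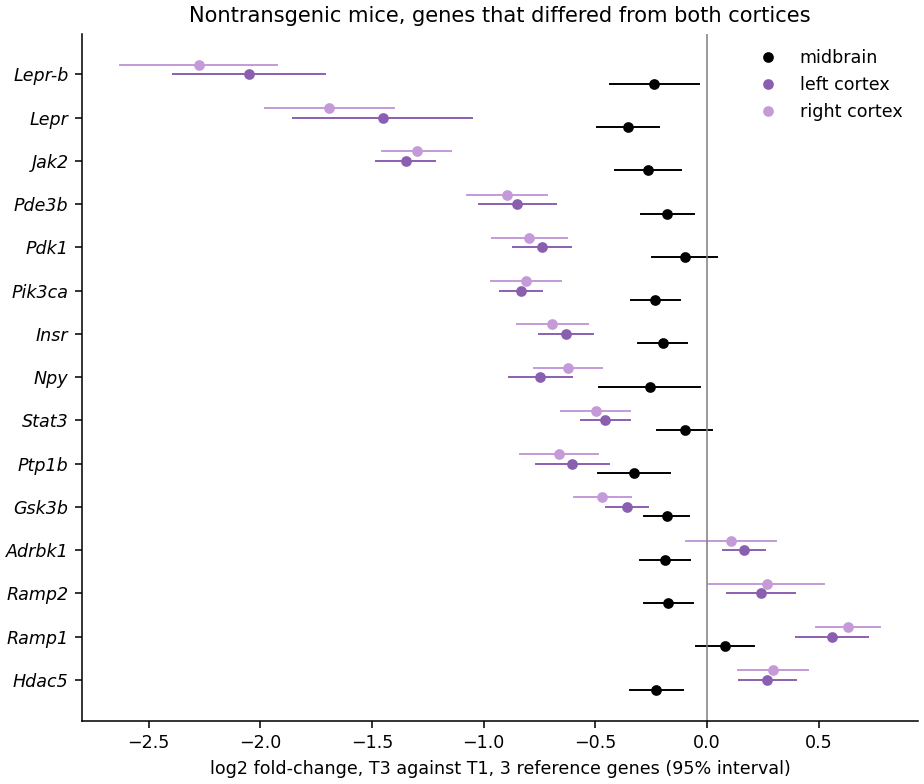
Log2 fold-change with 95% interval, T3 against T1 with 3 reference genes, in midbrain, left cortex and right cortex of nontransgenic mice. The 15 genes shown had a midbrain change that differed from that of both cortices in the same direction. Lepr-b is at -0.24 in midbrain and at -2.05 and -2.28 in the cortices, and Ramp1 is at 0.08 in midbrain and at 0.56 and 0.63 in the cortices.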

How the data were processed

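A custom nCounter probe set was hybridised to RNA pooled from 1 or 2 mice. The authors deposited raw counts per probe, with no background correction or normalization. Probe counts were fitted in R 4.3.3 with edgeR 4.0.16 (quasi-likelihood test, prior count 0.125), taking as library size the geometric mean over B2m and the other 2 reference genes, and collection time as a covariate. Standard errors were taken as the fold-change over the root of the F statistic, and 95% intervals from the t distribution. A gene was called at an adjusted p under 0.05 over the 43 genes. Single ratios were compared by exact permutation of time points within AM and PM pools, in Python 3.11.15 (NumPy 2.4.6, pandas 2.3.3, SciPy 1.17.1), and figures drawn with matplotlib 3.10.9. The midbrain and cortex of the same pools were compared with the pool as a block.

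Alternatives used TMM, the positive control probes, 2 of the 3 reference genes, DESeq2 1.42.0, limma 3.58.1 on log2 values after adding 0.5, background subtraction, a low count filter, other sets of pools, and each pool left out. Values by pool, at T3 mostly as range and median, were given for at most 14 genes with the lowest adjusted p. They were also given for c-Fos, Socs3, Npy, Pomc, Cart, Agrp, Hcrt and Mch, and for Ramp1 after its values were seen. The other genes were given by their list, some with fold-changes or counts. The comparison, the 9 gene lists and these rules were chosen with earlier results of these data known, and the fits without B2m beyond the planned one, the level checks by region and the T2 correlation were added after the data were seen.

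All 46 probe accessions matched RefSeq genes of GRCm38.p6. The study's own tool, NanoStringDiff, was not used here. None of the 25 pairs of pools within T1 or T3 agreed within sampling noise (lowest chi-square per degree of freedom 9.56). Pools are separate mice, pooled by the authors. Single results of 1 reference gene other than B2m are left out here.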

Additional observations from a re-analysis of the deposited data

Results flagged for a closer look

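Of 54 sets of T1 or T3 pools examined for the named genes and the B2m ratio, 3 held a pool far from the others, and chance alone sets apart about 1 in 20 sets. The B2m ratio of T3 pool 10, a single AM mouse, was 16.1 against 10.8 to 11.6 in the other T3 pools. The c-Fos normalised count of T3 pool 5/6 was 6908 against 1951 to 3688 in the others. The Ramp3 normalised count of T3 pool 7 was 3407 against 2402 to 2776 in the others.

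The T3 minus T1 change in midbrain differed from that of both cortices by more than 0.58 on the log2 scale in 5 genes. This was by a test of the difference itself over pools of the same mice. For the left and right cortex in turn, the differences were 1.83 and 2.24 for Lepr-b, 1.03 and 1.28 for Lepr, 1.03 and 1.03 for Jak2, 0.60 and 0.75 for Pde3b, and 0.58 and 0.59 for Pik3ca. All 5 were less lowered in midbrain, and Lepr and Lepr-b are probes of the same gene.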

How the results depend on the processing

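The count of 17 genes lower at T3 than at T1 depended on the reference. It was 0 with TMM, the positive control probes or without B2m, and 29 without the third reference gene. The panel median was -0.0047 with TMM and -0.05 without B2m, but -0.21 with the positive control probes, beside -0.19 in the main fit. The count was 2 in PM pools alone, 6 in pools of 2 mice and between 13 and 23 with 1 pool left out. The other planned settings gave 16 to 25 lower genes. The count of higher genes was 0, or 1 with TMM or without B2m, and 0 with each pool left out. Without B2m, AM pools alone gave 3 lower genes, PM pools alone 0, T3 pools labelled previously diabetic 1 and not so labelled 0, DESeq2 0 (with 1 higher), and 1 pool left out 0 to 1 lower and 0 to 1 higher. The B2m ratio difference was 0.46 in AM and 0.37 in PM pools (exact permutation p = 0.1 each, the smallest possible there), and 0.33 to 0.46 with 1 pool left out.

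For the PM minus AM difference, DESeq2 gave 8 higher genes. T2 against T1 gave 1 higher with the positive controls and 1 without B2m. T3 against T2 gave 31 lower and 0 higher with the positive controls, where the median was -0.34. It gave 1 lower and 2 higher with TMM and 1 lower and 1 higher without B2m. The slope within T2 gave 1 higher with the positive controls and 5 lower with DESeq2. NON minus HOM gave 1 higher with TMM and 13 lower with the positive controls. Midbrain minus left cortex gave 38 positive and 0 negative with the positive controls and 17 positive without B2m, and midbrain minus right cortex 42 and 0, and 21. The causes were not tested beyond these settings. DESeq2 adjusted 39 genes in T3 against T1 and 36 in the left cortex difference.

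With TMM, 13 genes turned from negative to positive: Gsk3b (0.0011), Ramp2 (0.012), Socs3 (0.024), Agrp (0.10), Mch (0.089), Arrb2 (0.063), Pde3b (0.0037), Foxo1 (0.10), Pik3r1 (0.12), Stat3 (0.08), Pdk1 (0.08), Mc4r (0.05) and Calcr-1a (0.01). Without B2m, 8 did: Agrp (0.059), Mch (0.042), Arrb2 (0.018), Foxo1 (0.06), Pik3r1 (0.07), Stat3 (0.04), Pdk1 (0.04) and Mc4r (0.0004). Signs under the other settings were followed for the genes given by pool and for the called genes. PM pools alone gave Socs3 0.058 and Mch 0.011, and AM pools alone Agrp 0.26. Cart was -0.013 without the third reference gene and -0.0034 without T3 pool 3/4. Agrp was 0.14 against T3 pools labelled previously diabetic, 0.012 without T1 pool 1/3, 0.039 without T1 pool 4/5 and 0.076 without T3 pool 5/6. No paired analysis was possible because each mouse was killed at collection, so that T1 and T3 pools hold different mice, and the groups share only the pool label 8/9. Depth limits Iapp, Ins1 and Ins2, which lay near background.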
